A study of Mus musculus with 6 samples.

Results

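The suprabasal keratin genes Krt1, Krt2, Krt10, Krt77, Krt78, Krt79 and Krt80 are 7 of the 32285 genes in the deposited matrices and were chosen by symbol, as keratins of the epidermal layers above the basal layer and of the upper hair follicle (HF). They were measured in dorsal skin of wildtype FVB males at p55 to p57. The time points are labelled 0, 4 and 16 h and 2, 4 and 6 d, with hair removal by shaving and waxing as the start of the time course and 1 10x Genomics Chromium 3′ library each. Every library holds cells of 2 mice that were processed separately and mixed at equal numbers, so the mice cannot be told apart and each time point is 1 sample. All groups share the strain, sex and genotype. The labels give the hair removal for every time point but do not say whether the 0 h skin was taken before or after waxing.

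Keratins are the intermediate filament proteins of epithelial cells, and each filament pairs a type I with a type II keratin. Basal keratinocytes make Krt5 and Krt14, and cells that leave the basal layer of the interfollicular epidermis (IFE) switch to the pair Krt1 and Krt10 before they cornify in the granular layer. The upper follicle (uHF), which opens onto the epidermis and joins the sebaceous duct, has its own suprabasal cells, for which Krt79 is a widely used marker.

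Krt10 is the type I member and the other 6 are type II. In GRCm38, the build of the deposited matrices (mm10), Krt10 lies on chromosome 11 (99385254 to 99389364). The type II genes lie on chromosome 15, all 7 members on the minus strand, at 101347444 to 101370162 for Krt80, 101810689 to 101818169 for Krt2, 101845426 to 101850794 for Krt1, 101858731 to 101869705 for Krt77, 101929332 to 101940324 for Krt79 and 101946001 to 101954287 for Krt78. Upstream sequence from RefSeq (GRCm38.p6) was at hand for 5 of the 7 genes, and not for Krt1 and Krt80. The 250 bases before the start of Krt10 (chr11:99389365-99389614), Krt77 (chr15:101869706-101869955) and Krt79 (chr15:101940325-101940574), all minus strand, are printed 5′ to 3′ because Krt10 and Krt77 had the most similar levels of any pair of members and Krt79 the least similar to them, as described later. Capitals mark matches on either strand to TATANA, a form of the TATA box, and to TTNNGNAA, a form of the C/EBP site.
Krt10: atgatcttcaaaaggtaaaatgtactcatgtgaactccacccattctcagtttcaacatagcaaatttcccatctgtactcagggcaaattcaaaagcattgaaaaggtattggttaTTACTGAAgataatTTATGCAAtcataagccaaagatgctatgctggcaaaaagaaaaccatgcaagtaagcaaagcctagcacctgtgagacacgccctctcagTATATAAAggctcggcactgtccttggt
Krt77: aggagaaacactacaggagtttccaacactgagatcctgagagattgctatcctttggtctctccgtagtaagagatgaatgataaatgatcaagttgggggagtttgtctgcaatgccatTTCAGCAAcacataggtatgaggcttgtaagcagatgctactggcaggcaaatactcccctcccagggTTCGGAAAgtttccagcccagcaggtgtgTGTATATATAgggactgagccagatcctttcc
Krt79: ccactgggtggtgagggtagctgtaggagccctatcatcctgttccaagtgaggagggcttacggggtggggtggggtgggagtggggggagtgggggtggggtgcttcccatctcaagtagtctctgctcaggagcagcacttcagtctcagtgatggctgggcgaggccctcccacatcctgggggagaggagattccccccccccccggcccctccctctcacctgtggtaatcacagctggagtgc
Krt10 and Krt77 held both motifs, with TATANA within 32 bases of the start, and so did Krt2, whereas the windows of Krt78 and Krt79 held neither. The motif letters were set after these sequences had been read, so this is a description, and other forms of the TATA box were not searched. In level over all classes and libraries, Krt78 had a Pearson's r of 0.87 with Krt10 and 0.89 with Krt77, and Krt2 had 0.63 with each. TATANA matches overlap one another in Krt10 and Krt77. Over all 32851 RefSeq windows of the same length, 22.6% held TATANA and 36.8% held TTNNGNAA. No window of the 5 members held TGANTCA, the AP-1 site, which 6.75% of all windows held. The G and C content of the window was 39.6% in Krt10, 46.8% in Krt77 and 64.0% in Krt79.

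The libraries held 72634390 to 112370376 unique molecular identifiers (UMIs, counted RNA molecules), and 49974 of 61031 barcodes were analysed, with 7 to 31 barcodes shared between any pair of libraries. Cells were clustered without the 7 members and the clusters were called by marker genes, so that a class such as IFE spinous-like was not defined by the keratins described. Since the names came from these markers, the numbers of own markers raised follow from the naming and do not check it. They were 6 or 7 of 7 for the clusters of the IFE basal-like class and 6 of 7 for the IFE spinous-like class. They were 12 of 12 for the IFE granular-like, 8 of 8 for the uHF suprabasal-like and 9 of 9 for the T cell-like class. The spinous markers did not separate the classes. In sum they were at 12053 to 18478 CPM in spinous-like and 35128 to 63346 CPM in granular-like cells. In uHF suprabasal-like cells the sum was above the spinous-like one at 4 h, 16 h and 6 d and below it at the other times. Levels are the UMIs of a gene as counts per 1000000 UMIs (CPM), summed over the cells of a class in a library. T cell-like cells, which should make no keratin, gave the level of free RNA, and their median depth was 2020.5 to 2692 UMIs per cell. Since free RNA adds alike numbers of molecules to every droplet, it weighs more in the CPM of such small cells than in that of keratinocytes. Shares of cells with a UMI are given for cells with at least 2000 UMIs, each thinned to 2000 UMIs. Cells with fewer were left out of the shares, so that 421 of 816 T cell-like cells counted at 2 d and 462 of 752 at 4 d. Intervals of a ratio of 2 counts are exact binomial ones and cover counting error only, and no fold between libraries has a replicate check.

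**Figure D1:**
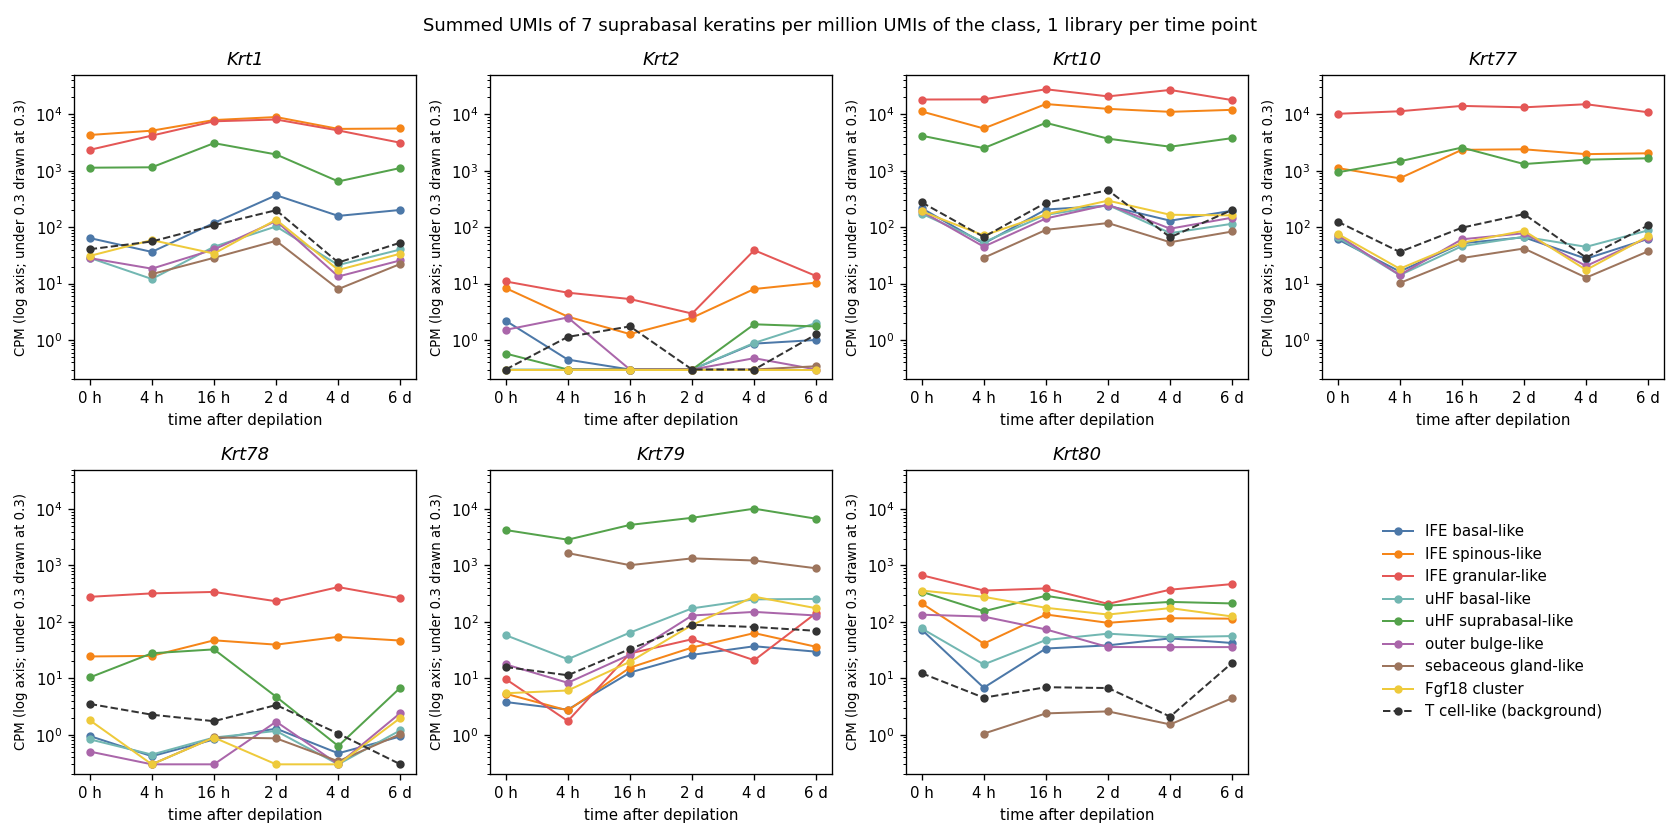
CPM (log axis) of each keratin against time after depilation in 8 classes and in T cell-like cells, 1 point per library, with the dashed line as the level of free RNA. Krt10 in IFE spinous-like cells lies at 5596 to 15164 CPM and in T cell-like cells at 66.2 to 450.3 CPM. Among the classes drawn, Krt79 is highest in uHF suprabasal-like cells in every library, followed by sebaceous gland-like cells from 4 h on. A cluster led by Wfdc18, not drawn, was above uHF suprabasal-like cells in 1 of 3 libraries, at 6 d.

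Krt10, the type I partner of the suprabasal filament, was highest in IFE granular-like cells, lower in IFE spinous-like cells and lower again in uHF suprabasal-like cells. IFE granular-like cells held 18234, 18354, 27713, 20743, 26939 and 17789 CPM at 0, 4 and 16 h and 2, 4 and 6 d. IFE spinous-like cells held 11214, 5596, 15164, 12460.1, 11035 and 11977 CPM at the same times. In every library the granular-like level was above the spinous-like level, by 1.49 to 3.28 times, and the ranges of the 2 classes did not overlap. uHF suprabasal-like cells held 4171, 2508, 7045, 3691, 2659 and 3779 CPM, which was below the spinous-like level in 6 of 6 libraries (2.15 to 4.15 times). With 2000 UMIs per cell, a Krt10 UMI was found in 88.5% to 99.0% of IFE spinous-like cells and 88.7% to 99.7% of IFE granular-like cells, against 7.79% to 43.7% of T cell-like cells. Before thinning, the median depth of these keratinocyte classes was 7320.0 to 11316 UMIs in spinous-like and 21275 to 35156 UMIs in granular-like cells.

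Krt1, the type II partner of Krt10, was highest in IFE spinous-like rather than granular-like cells. The spinous-like class held 4292, 5116, 7892, 8922, 5503 and 5592 CPM at 0, 4 and 16 h and 2, 4 and 6 d, and the granular-like class 2339, 4186, 7500.0, 8074, 5163 and 3125 CPM. The spinous-like level was the higher of the 2 in 6 of 6 libraries, although the ranges overlapped. Per cell the order was the opposite, since a granular-like cell held 1.51 to 2.70 times as many Krt1 UMIs as a spinous-like cell of its library, out of a larger total. uHF suprabasal-like cells held 1129.7, 1149, 3078, 1939.8, 645 and 1116 CPM, 2.56 to 8.53 times less than spinous-like cells and without overlap. A Krt1 UMI was found in 87.5% to 98.3% of spinous-like, 68.2% to 96.1% of granular-like, 16.4% to 45.2% of uHF suprabasal-like and 3.25% to 24.9% of T cell-like cells. In spinous-like cells 82.6% to 96.6% had both partners at this depth.

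The number of Krt1 UMIs per Krt10 UMI, a ratio of the same genes in different cells that does not depend on cell depth, was lower in the granular-like than in the spinous-like class of each library. It was 0.383, 0.914, 0.520, 0.716, 0.499 and 0.467 in spinous-like and 0.128, 0.228, 0.271, 0.389, 0.192 and 0.176 in granular-like cells at 0, 4 and 16 h and 2, 4 and 6 d. Within either class the ratio was lowest at 0 h. These classes follow from clustering and are not independent samples, so the difference between them is given without a test.

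IFE basal-like cells differed between the partners. They held 217, 51.1, 205, 239, 130.1 and 196 CPM of Krt10, below the T cell-like level of 275, 67.0, 270.2, 450.3, 66.2 and 202 CPM in 5 of 6 libraries. Krt1 was at 64.1, 36.4, 118, 368, 158 and 202 CPM, above the T cell-like level of 40.6, 55.7, 108, 199.6, 23.6 and 53.1 CPM in 5 of 6 libraries, the exception being 4 h. In UMIs per cell, basal-like cells held 0.584, 0.338, 1.38, 3.03, 1.00 and 1.47 of Krt1 against 0.108, 0.125, 0.250, 0.435, 0.0598 and 0.145 in T cell-like cells, and 1.98, 0.474, 2.38, 1.97, 0.823 and 1.43 of Krt10 against 0.732, 0.151, 0.625, 0.982, 0.168 and 0.552. The ratio of Krt1 to Krt10 UMIs was 0.296, 0.713, 0.577, 1.54, 1.22 and 1.03 in basal-like and 0.147, 0.831, 0.40, 0.443, 0.357 and 0.263 in T cell-like cells. It was higher in basal-like cells in 5 of 6 libraries and reached more Krt1 than Krt10 UMIs at 2 d, 4 d and 6 d. In Langerhans-like cells, also immune cells, it was 0.351 at 0 h, 0.5625 at 16 h, 0.459 at 2 d and 0.313 at 6 d. The basal-like ratio was below this at 0 h and above it at 16 h, 2 d and 6 d. The part of free RNA in these ratios was not tested.

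**Figure D2:**
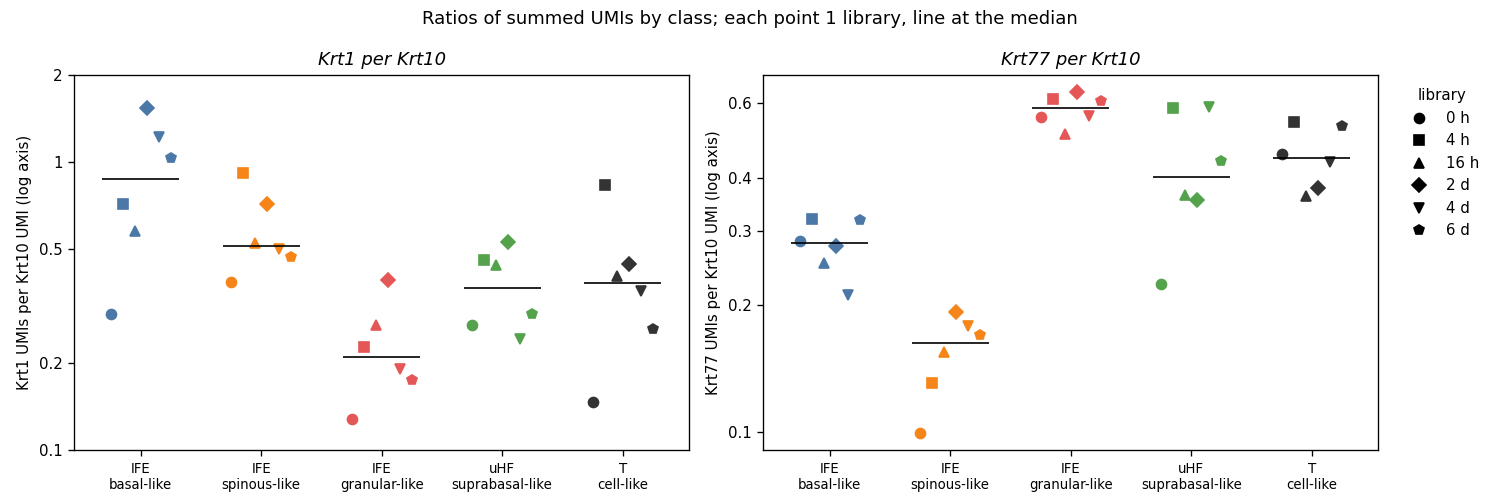
Krt1 UMIs per Krt10 UMI (left) and Krt77 UMIs per Krt10 UMI (right), log axes, in 5 classes, with 1 point per library (marker shape) and a line at the median. The left ratio is higher in spinous-like than granular-like cells of the same library, the right ratio is lower there, at 0.0994 to 0.192 against 0.507 to 0.639.

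Krt77, a type II keratin of the upper epidermal layers, had the opposite order to Krt1 in the IFE. IFE granular-like cells held 10181, 11301, 14053, 13256, 15055 and 10833 CPM at 0, 4 and 16 h and 2, 4 and 6 d. Spinous-like cells held 1114, 733, 2343, 2393, 1964 and 2034 CPM, 5.33 to 15.4 times less in the same libraries and without overlap. Of all Krt77 UMIs in a library, granular-like cells gave 53.3% to 89.6%. They were 71 to 377 of its cells, but with the highest median depth of all classes, 21275 to 35156.5 UMIs per cell. The ratio of Krt77 to Krt1 UMIs was 4.35, 2.70, 1.87, 1.64, 2.92 and 3.47 in granular-like cells at 0, 4 and 16 h and 2, 4 and 6 d and 0.260, 0.143, 0.297, 0.268, 0.357 and 0.364 in spinous-like cells. In the granular-like class there were thus more Krt77 than Krt1 UMIs in 6 of 6 libraries, and in the spinous-like class fewer in 6 of 6. uHF suprabasal-like cells held 934, 1466, 2569, 1311, 1567 and 1658 CPM, a range that overlapped the spinous-like range, with the higher level in either class in some libraries. IFE basal-like cells, at 16.3 to 66.1 CPM, were below the T cell-like level (28.9 to 170.3 CPM) in 6 of 6 libraries and above it per cell in 6 of 6 (1.46 to 2.66 times).

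Krt78, a little studied type II keratin, had the highest share of its UMIs in granular-like cells of all members, as the mean of the 6 libraries. They held 279, 321, 340.1, 232, 414 and 263 CPM at 0, 4 and 16 h and 2, 4 and 6 d, and spinous-like cells 24.5, 25, 47.2, 39.6, 54.5 and 46.8 CPM, 5.62 to 12.8 times less. Granular-like cells gave 77.5% to 91.0% of its UMIs in each library. uHF suprabasal-like cells had a median of 8.62 CPM over the libraries, with a range of 0.633 to 32.7 CPM. Krt78 was at 0.417 to 1.29 CPM in basal-like and 0 to 3.53 CPM in T cell-like cells. A Krt78 UMI was found in 35.0% to 65.2% of granular-like cells, 3.73% to 7.88% of spinous-like cells and 0% to 1.12% of T cell-like cells.

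Krt2, a type II keratin of the late suprabasal layers that is best known from mouse ear, tail and footpad, was low throughout this dorsal skin. IFE granular-like cells held 10.9, 6.90, 5.32, 2.94, 39.0 and 13.6 CPM at 0, 4 and 16 h and 2, 4 and 6 d, from 141, 59, 61, 28, 67 and 121 UMIs. Spinous-like cells held 8.33, 2.60, 1.27, 2.48, 8.01 and 10.4 CPM, less than granular-like cells in 6 of 6 libraries. T cell-like cells had 3 Krt2 UMIs of 6494477 over all libraries, and uHF suprabasal-like cells 40 of 42369850. The median level over the libraries was 0.568 CPM in T cell-like and 0.355 CPM in uHF suprabasal-like cells. A Krt2 UMI was found in 0.327% to 5.80% of granular-like cells with 2000 UMIs. In the whole libraries Krt2 ranged from 0.832 to 4.57 CPM. The levels in granular-like and spinous-like cells were both lower at 4 h, 16 h and 2 d than at 0 h and 6 d.

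The granular-like class had 71 cells at 4 d, and 1 of these would remain if doublets were removed at 2 times the predicted rate, as against 283 of 324 at 0 h. Over all libraries 34.9% of granular-like cells, whose UMI totals were the highest of all classes, would be removed. The level of its 12 granular markers also moved, from 5043 CPM at 2 d to 54989 CPM at 6 d in sum, and its part in the keratin levels was not tested.

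**Figure D3:**
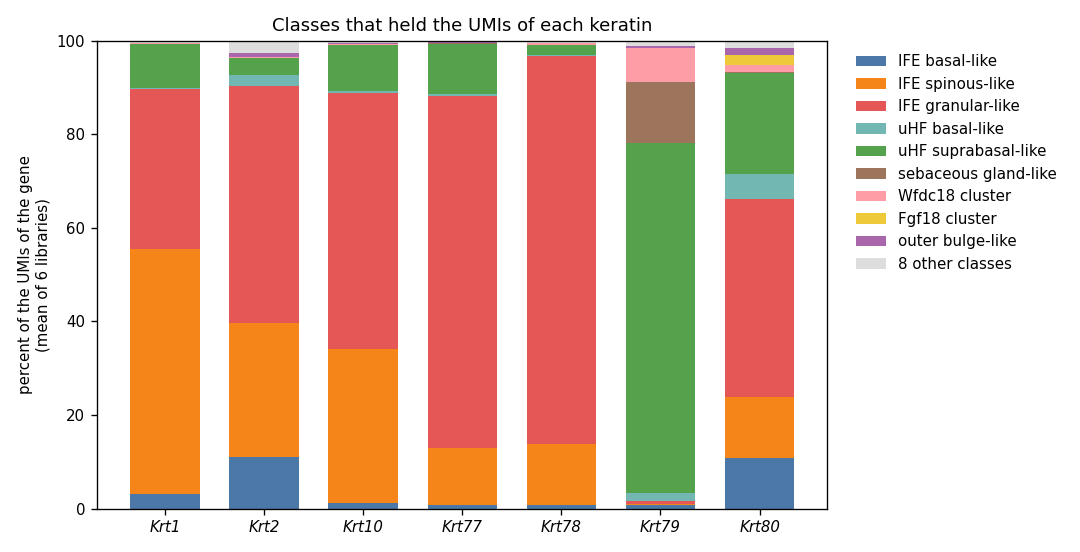
Share of all UMIs of each keratin that fell in each class, as the mean of 6 libraries, in percent of the UMIs of the gene. Granular-like cells hold 75.1% for Krt77 and 82.9% for Krt78, spinous-like cells 52.4% for Krt1, and uHF suprabasal-like cells 74.8% for Krt79. The last share was 50.7% to 93.8% over the libraries. Sebaceous gland-like cells held 47.1% of the Krt79 UMIs at 4 h, and the Wfdc18 cluster 21.6% at 4 d and 21.0% at 6 d.

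Together the 7 keratins took 3.17% to 5.0% of all UMIs in granular-like cells, 1.15% to 2.56% in spinous-like cells and 0.817% to 1.83% in uHF suprabasal-like cells over the 6 libraries. Krt1, Krt10 and Krt77 each lay above their level in T cell-like cells in these 3 classes, in 6 of 6 libraries.

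Krt79, the type II keratin of the upper follicle, had a different distribution. uHF suprabasal-like cells held 4251, 2865, 5235, 6996, 10156 and 6728 CPM at 0, 4 and 16 h and 2, 4 and 6 d. The level was highest at 4 d, 2.39 (95% interval 2.35 to 2.43) times that at 0 h. The 8 uHF suprabasal markers, Krt79 not among them, also moved in this class. In sum they were at 17978, 15863, 24556, 49461.5, 79769 and 66957 CPM at the same times. Their part in the keratin levels of the class was not tested. IFE spinous-like cells held 5.35, 2.70, 15.5, 35.2, 63.5 and 36.2 CPM and IFE basal-like cells 3.81, 2.79, 12.7, 26.1, 37.1 and 29.7 CPM, below the T cell-like level of 15.9, 11.4, 33.1, 88.8, 81.4 and 69.6 CPM in 6 of 6 libraries for both classes. Per cell, the deeper spinous-like cells held 0.0567, 0.0285, 0.178, 0.401, 0.534 and 0.331 UMIs of Krt79 at 0, 4 and 16 h and 2, 4 and 6 d, against 0.0423, 0.0256, 0.0766, 0.194, 0.206 and 0.190 in T cell-like cells. The spinous-like number was the higher in 6 of 6 libraries (1.11 to 2.59 times) and the basal-like number in 5 of 6 (0.822 to 1.92 times), so CPM and UMIs per cell gave opposite orders in all but 1 of these comparisons and low expression cannot be told apart from free RNA in these classes. Among cells thinned to 2000 UMIs, 54.2% to 95.3% of uHF suprabasal-like cells had a Krt79 UMI, against 0.223% to 5.89% of spinous-like and 2.04% to 15.9% of T cell-like cells. uHF basal-like cells held 58.3, 21.9, 64.7, 174, 251 and 256 CPM, above the T cell-like level in 6 of 6 libraries and 26.3 to 131 times below the uHF suprabasal-like level.

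Krt79 was also found in the gland. Sebaceous gland-like cells held 1658, 1013, 1337, 1226 and 891 CPM at 4 and 16 h and 2, 4 and 6 d, the 0 h library having 13 such cells, too few to be given. The class consisted of 2 clusters. The cluster with 1682 to 3125 CPM was led by the lipid genes Fa2h, Elovl3 and Cidea, and the other, led by Lcn2 and Akr1c18, held 345 to 684 CPM. In contrast Krt10 was at 28.6 to 118 CPM in the class, below the T cell-like level in 5 of 5 libraries, although UMIs per cell were 1.45 to 3.12 times those of T cell-like cells in these deeper cells. The ratio of Krt79 to Krt10 was 10.6 to 58.0 in the gland and 0.743 to 3.82 in uHF suprabasal-like cells. A cluster led by Wfdc18, found from 2 d on and without a clear name (5 of 8 uHF suprabasal markers raised), held 1242, 7527 and 8992 CPM at 2, 4 and 6 d. Its Krt79 level was above the uHF suprabasal-like level at 6 d and below it at 2 d and 4 d. Its Krt1 level was 19.8 to 56.0 CPM, below the T cell-like level in 3 of 3 libraries, and above it per cell in 2 of 3.

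Krt79 and Krt10 were found in overlapping but not identical cells of the uHF suprabasal-like class. At 2000 UMIs, 37.3%, 16.5%, 39.1%, 46.4%, 34.9% and 40.4% of cells had both at 0, 4 and 16 h and 2, 4 and 6 d. Cells with Krt79 and no Krt10 made up 28.6%, 37.7%, 26.3%, 41.4%, 60.4% and 47.4%, the largest share being at 4 d. Krt10 was found in 30.5% to 59.8% of cells with Krt79 and in 42% to 96.3% of cells without it, and the share was higher without Krt79 in 6 of 6 libraries. These are detection shares at a fixed depth, in which a cell without a UMI may still express the gene.

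**Figure D4:**
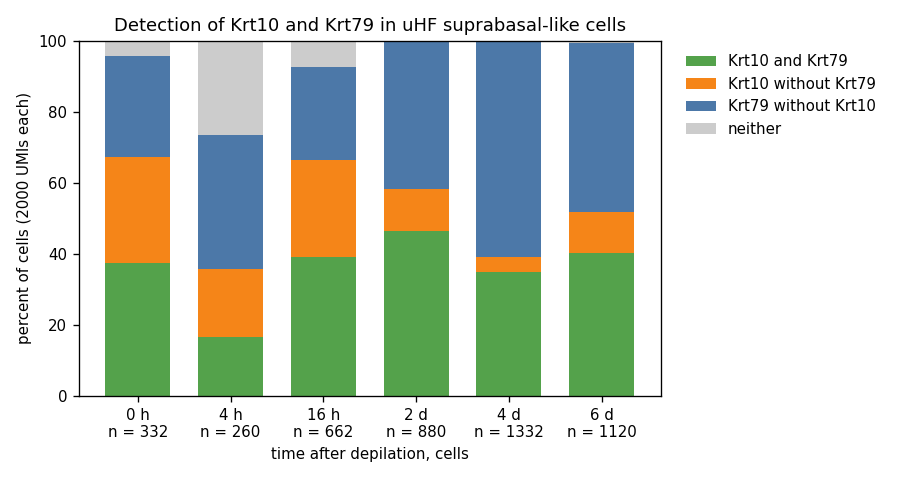
Percent of uHF suprabasal-like cells, each thinned to 2000 UMIs, with a UMI of both Krt10 and Krt79, of either alone, or of neither, by library with the number of cells. Cells with Krt79 alone make up 26.3% to 60.4%, and cells with neither are 26.5% at 4 h.

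At doubled cluster resolution, again without the 7 members, the uHF suprabasal-like class divided into 2 main parts. The larger, of 2368 cells, again had 8 of 8 uHF suprabasal markers raised and kept the name. The other, of 2169 cells, was led by Dpysl3 and the granular layer gene Casp14 and stayed unnamed. The parts come from clustering and are compared as a description. They differed most in Krt1 and Krt10. Krt1 was at 103, 15, 182, 73.8, 16.5 and 69.4 CPM in the named part at 0, 4 and 16 h and 2, 4 and 6 d, and at 1401, 1629, 4691, 3304, 1414 and 1838 CPM in the Dpysl3 part. By CPM the named part was above the T cell-like level of Krt1 in 3 of 6 libraries. Krt10 was at 529.5, 328, 1014, 534, 494 and 539 CPM in the named part, above T cell-like cells in 6 of 6 libraries, and 9.60 to 11.2 times higher in the Dpysl3 part. Krt77 was at 380.3, 262, 1287, 985, 1288 and 1217 CPM in the named part, above T cell-like cells in 6 of 6 libraries. The Dpysl3 part was 1.49 to 7.62 times higher in Krt77.

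Krt79 went the other way. It was at 4301, 5999, 8263, 9426, 11442 and 9381 CPM in the named part and 4276, 1885, 4112, 5255, 8629 and 5136 CPM in the Dpysl3 part, and lower in the latter in 6 of 6 libraries, although nearly equal at 0 h. Krt80 was at 222, 135, 199, 163, 245 and 241 CPM and 371, 166, 339, 217, 199.9 and 184 CPM, with the higher level in either part in some libraries. The proportion of the 2 parts changed with time, from 78 named and 251 Dpysl3 cells at 0 h to 876 and 487 at 4 d, so a level over the whole class mixes both. That is a description of 1 library per time, and the yield of each part from the tissue was not tested.

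**Figure D5:**
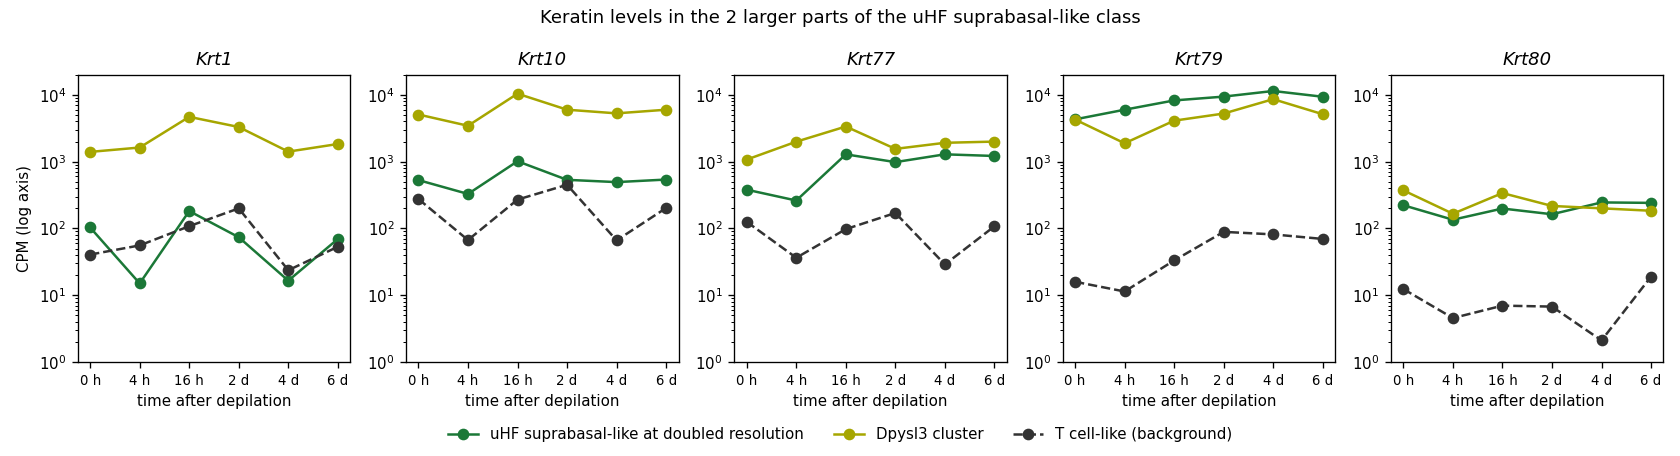
CPM (log axis) of 5 keratins against time after depilation in the 2 larger parts of the uHF suprabasal-like class and in T cell-like cells, 1 point per library. Krt1 lies between 1401 and 4691 CPM in the Dpysl3 part and between 15 and 182 CPM in the named part, close to the dashed line, while Krt79 lies higher in the named part.

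Krt80, a type II keratin of many stratifying epithelia, was the most widely spread member. IFE granular-like cells held 674, 359.8, 392, 209, 373 and 469 CPM at 0, 4 and 16 h and 2, 4 and 6 d. uHF suprabasal-like cells held 343, 154, 291, 194, 226 and 213 CPM, above the spinous-like level of 214, 41.2, 136, 96.4, 116 and 114 CPM in 6 of 6 libraries. Of the members only Krt80 was above the T cell-like level (2.10 to 19.0 CPM) in 6 of 6 libraries in all 6 classes tested over time, including IFE basal-like cells at 6.84 to 73.3 CPM, uHF basal-like cells at 17.6 to 76.7 CPM and outer bulge-like cells at 35.7 to 134 CPM. A cluster led by Fgf18, between inner and outer bulge in its markers, held 359.9, 279, 178, 135, 176 and 125 CPM, 2.24 to 4.92 times the outer bulge-like level. Sebaceous gland-like cells, at 1.05 to 4.46 CPM, were below the T cell-like level in 5 of 5 libraries, and above it per cell in 4 of 5.

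Over the sums of all classes and libraries (82 sums, 13802 genes), the genes most similar in log2 level were, with Pearson's r, Krt10 (0.95), Calm4 (0.90) and Aadacl2 (0.90) for Krt1, Krt77 (0.96), Krt1 (0.95) and Calm4 (0.93) for Krt10, Krt10 (0.96), Gm94 (0.93) and Calm4 (0.92) for Krt77 and Skint11 (0.89), Krt77 (0.89) and Gm94 (0.88) for Krt78. Calm4 encodes a calmodulin-like protein of the suprabasal epidermis. For Krt79 they were Defb6 (0.77), Insig2 (0.70) and AI463229 (0.68), where Defb6 encodes a defensin, and r with the other members was -0.24 to 0.10. For Krt80 they were Clic3 (0.93), Pof1b (0.92) and Pdzk1ip1 (0.90), and for Krt2 Skint11 (0.78), Serpinb12 (0.74) and Otop3 (0.72). Calm4 was among the markers used to name the IFE spinous-like class, and Defb6 among those used for the uHF suprabasal-like class. The sums share libraries, so these values are descriptions.

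The time course of the members was compared with the spread around a smooth curve, a spline of hours with 3 degrees of freedom fitted with edgeR's quasi-likelihood test to the sums of each class (6 libraries, 2 residual degrees of freedom). At an adjusted p under 0.05, 0 members were called in each of the 6 classes, and 0% of all genes were called in each. The members tested were 7 in the IFE basal-like, spinous-like, granular-like and uHF suprabasal-like classes and 5 in the uHF basal-like and outer bulge-like classes. Of these 38 fits, 12 had an unadjusted p under 0.05, namely Krt79 in the IFE basal-like, IFE spinous-like, IFE granular-like, uHF basal-like and outer bulge-like classes, Krt2 in the IFE spinous-like, IFE granular-like and uHF suprabasal-like classes, Krt1 in the IFE granular-like and uHF suprabasal-like classes, Krt78 in the uHF suprabasal-like class and Krt80 in the outer bulge-like class. Over all genes, 79 of 12912 had an unadjusted p under 0.05 by edgeR in the IFE basal-like class, 104 of 11338 in the spinous-like and 478 of 11209 in the granular-like class. The same count was 237 of 11572 in the uHF basal-like, 463 of 11557 in the uHF suprabasal-like and 470 of 10209 in the outer bulge-like class. DESeq2's likelihood ratio test on the same sums called Krt79 in IFE basal-like, spinous-like, granular-like and outer bulge-like cells, Krt2 in granular-like cells, Krt78 in uHF suprabasal-like cells and Krt80 in outer bulge-like cells, where 0.116% (IFE basal-like), 0.159% (spinous-like), 1.59% (granular-like), 1.08% (uHF suprabasal-like) and 1.19% (outer bulge-like) of all genes were called. It called 0.284% of genes and 0 members in uHF basal-like cells. On simulated sums of 6 libraries edgeR recovered 91.9% of genes changed by 2 on the log2 scale. These sums had spinous-like means, linear trends and a spread fixed in advance. That spread was not estimated from the real libraries, so the share does not give the power of the fits above.

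Krt10 in spinous-like cells was lowest at 4 h. The 4 h level there was 0.499 (95% interval 0.494 to 0.504) times that at 0 h, and in granular-like cells 1.01 (95% interval 1.00 to 1.01) times. Krt80 was lower still in the same comparison, at 0.192 (95% interval 0.173 to 0.214) times in spinous-like cells. Krt1 was not lower, at 1.19 (95% interval 1.18 to 1.21) times. The level of the 7 IFE basal markers in the spinous-like class also moved. In sum it was 6233, 12751, 15686.5, 16511, 23207.5 and 8169 CPM at 0, 4 and 16 h and 2, 4 and 6 d. The 6 inner bulge and companion layer markers, among them Krt6a and Krt6b, were at 3143 CPM in sum in spinous-like cells at 4 h, against 47.8 at 0 h. This was not particular to the spinous-like class. Their sum was highest at 4 h in each other class tested too, from 769 CPM in IFE basal-like to 3759 CPM in outer bulge-like cells. The part of these marker levels in the keratin levels was not tested. The adjusted p of Krt10, Krt80 and Krt1 over time in the spinous-like class was 1 for each. Free RNA moved between libraries too, since Krt10 in T cell-like cells at 4 h was 0.243 (95% interval 0.177 to 0.331) times that at 0 h.

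Over whole libraries Krt10 and Krt77 were lowest at 4 d. Krt10 was at 5824, 3344, 6281, 5115, 1513 and 4389.6 CPM of all analysed cells at 0, 4 and 16 h and 2, 4 and 6 d, and Krt77 at 2263, 1647, 2282, 2250.3, 657 and 1869 CPM, while their levels within the spinous-like and granular-like classes at 4 d were not the lowest. The 4 d library had 371 spinous-like and 71 granular-like cells, against 912 or more and 294 or more in the others. Krt79 over whole libraries was at 237, 205, 502, 956, 1962 and 1416 CPM, highest at 4 d, when uHF suprabasal-like cells were 1373 against 332 at 0 h. Fewer or more cells of a type in the skin and a different yield from the tissue cannot be told apart.

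Krt79 had a positive fitted trend in each of the 6 classes. From 0 h to 6 d it was 3.32 on the log2 scale in outer bulge-like cells (edgeR, adjusted p = 0.351), 2.73 in uHF basal-like, 3.34 in IFE spinous-like, 3.12 in IFE basal-like, 3.62 in IFE granular-like and 1.23 in uHF suprabasal-like cells, with adjusted p values of 0.967 to 1 in these 5. In T cell-like cells it was 15.9, 11.4, 33.1, 88.8, 81.4 and 69.6 CPM over the same libraries, 5.13 (95% interval 2.63 to 11.4) times higher at 4 d than at 0 h, so the free RNA was higher too, and its part in these trends was not tested. Outer bulge-like cells held 17.7, 8.35, 26.3, 130.0, 151 and 130.0 CPM, above the T cell-like level in 4 of 6 libraries. Krt80 in outer bulge-like cells was 134, 124, 73.8, 35.9, 35.7 and 35.8 CPM and its trend -2.07 (edgeR, adjusted p = 0.362). Its levels at 0 h and 4 h were the highest and those from 2 d on the lowest, and T cell-like cells at these times held 12.4, 4.54, 6.97, 6.75, 2.10 and 19.0 CPM. Both trends were called by edgeR on a scale of log2(hours + 1), where 8.48% of all genes were called in outer bulge-like cells (866 of 10209), with an edgeR adjusted p of 0.000246 for Krt79 and 0.00194 for Krt80.

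The time courses of the spinous-like and uHF suprabasal-like classes were compared in a single fit with the library as block. Of the 7 members, Krt78 was called (1 of 7, against 0.197% of all genes, 24 of 12197). In uHF suprabasal-like cells it was at 10.4, 27.8, 32.7, 4.72, 0.633 and 6.86 CPM, from 36, 66, 243, 41, 6 and 75 UMIs, high at 4 h and 16 h and lowest at 4 d, whereas the spinous-like level given before was highest at 4 d. The trend of uHF suprabasal-like minus spinous-like cells was -3.78 on the log2 scale (edgeR, adjusted p = 0.0464). The call was lost on the scale of log2(hours + 1), with an adjusted p of 0.612, and without any of the 16 h, 2 d, 4 d or 6 d libraries, with adjusted p values of 0.52, 0.164, 0.428 and 0.0628. The difference was -2.16 for Krt79 (edgeR, adjusted p = 0.0514), -0.76 for Krt1 (0.0853) and -0.55 for Krt10 (0.2). For Krt79 the spinous-like class was below T cell-like cells by CPM and above them per cell, as given before. Krt78 differed between the 2 parts of the uHF suprabasal-like class, at 1.17 to 49.4 CPM in the Dpysl3 part and 0.194 to 2.62 CPM in the named part. It was 5.23 to 23.4 times higher in the Dpysl3 part, and the named part was above T cell-like cells in 2 of 6 libraries. The proportion of the parts changed with time, and its share in the difference for Krt78 was not tested.

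Members were called by edgeR under some other settings, against these shares of all genes called. In outer bulge-like cells they were 1.39% on the rank of the time points, 1.79% at halved cluster resolution, 5.26% without the 0 h library, 1.46% without 4 h and 0.664% without 2 d. In granular-like cells they were 1.41% without 0 h and 5.11% without 4 h, and without 0 h 0.347% in uHF basal-like and 0.795% in uHF suprabasal-like cells. In the difference of the 2 classes they were 1.85% on log2(hours + 1), 1.14% on the rank, 7.71% without 0 h and 4.07% without 4 h.

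Related gene lists were tested in the same fits. Of the 8 suprabasal secreted and early proteins, 15 desmosome and plakin genes, 18 transcription and Notch regulators and 7 basal and wound keratins, 0 were called by edgeR in any of the 6 classes on the scale of hours. On the log2(hours + 1) scale, the desmosomal cadherin Dsg1b and the wound keratin Krt6a were called as lower with time in uHF suprabasal-like cells, where 1.10% of all genes were called. In outer bulge-like cells 3 of 7 secreted and early proteins tested (Lgals3, Dmkn and Them5), 2 of 11 desmosome and plakin genes (Ppl and Jup) and 2 of 6 basal and wound keratins (Krt6a and Krt14) were called, against 8.48% of all genes. The numbers called as higher and lower were 1 and 2, 0 and 2, and 0 and 2 in that order. The other 4 classes had 0 calls in these lists on that scale, where 0.0981% of genes were called in IFE granular-like and 0% in IFE basal-like, IFE spinous-like and uHF basal-like cells.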

How the data were processed

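Per the submitters' processing notes, reads were processed with Cell Ranger 6.1.2 on mm10, and the authors deposited raw UMI counts per gene and cell as 1 filtered matrix for each of 6 libraries. Cells with 500 to 7000 genes and at most 10% mitochondrial UMIs were kept, and doublets were removed with scanpy's Scrublet at a rate of 0.8% per 1000 barcodes. Cells were clustered with Seurat 5.3.0 at a resolution of 0.4 on 2000 variable genes, without the members, the list genes and cell cycle genes. Clusters were named from marker lists. The gap required to the second list was set after the clusters had been seen. Counts were summed per class and library where at least 20 cells were present. Classes were compared within a library as a description. Time was tested with edgeR 4.0.16 (R 4.3.3) on a spline of hours, with Benjamini-Hochberg adjustment over all genes passing edgeR's filter on low counts. With 1 library per time point, p-values measure the spread around the curve. DESeq2 1.42.0, other time scales, normalizations, filters, resolutions and leaving out each library were alternatives. On simulated counts over 11271 genes, with spinous-like means and a spread fixed in advance, edgeR gave 6 false calls. The members and lists were chosen with earlier results of these data known. All members are named, and the genes most like each were the 3 of highest Pearson's r in log2(CPM + 1). The calls among the regulators in outer bulge-like cells on the log2(hours + 1) scale are not reported here. Promoter motif letters were set after the sequences had been read. UMIs per library were 72634390 to 112370376, and Krt2 rests on few counts in every class, with 28 to 141 UMIs per library in granular-like cells.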

Additional observations from a re-analysis of the deposited data

Results flagged for a closer look

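The time courses of Krt78 in IFE spinous-like and uHF suprabasal-like cells differed by edgeR's test of the difference itself, with a trend of -3.78 on the log2 scale (uHF suprabasal-like minus spinous-like) and an adjusted p of 0.0464. Krt78 was 5.23 to 23.4 times higher in the Dpysl3 part of the uHF suprabasal-like class than in its named part. The level of the whole class at 4 d rested on 6 UMIs, and the call was lost on the scale of log2(hours + 1). The adjusted p was 0.152 on the rank of the time points and 0.0628 to 0.52 without the 6 d, 2 d, 4 d or 16 h library, with the same direction in each.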

How the results depend on the processing

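No paired analysis was possible because each time point is 1 library and no replicate numbers are shared. The library block in the difference of the 2 classes is part of its design. edgeR called 0 members over time in every class on the hours scale. DESeq2 called 1 member in IFE basal-like (0.116% of all genes called) and 1 in spinous-like cells (0.159%), Krt79 in both. It called 2 in granular-like (Krt2 and Krt79, 1.59%), 1 in uHF suprabasal-like (Krt78, 1.08%) and 2 in outer bulge-like cells (Krt79 and Krt80, 1.19%). In outer bulge-like cells edgeR called 2 members on log2(hours + 1) (8.48% of all genes) and 2 on the rank of the time points (1.39%). At halved cluster resolution it called 1 (Krt80, 1.79%). In the difference of the classes 2 were called on log2(hours + 1) (Krt77 and Krt79, with 1.85% of all genes called) and 2 on the rank (Krt10 and Krt79, with 1.14%). Leaving out a library gave 0 to 2 calls in granular-like cells (Krt2 without 0 h, 1.41% of all genes called, and Krt2 and Krt79 without 4 h, 5.11%). It gave 0 to 1 in uHF basal-like cells (Krt79 without 0 h, 0.347%) and 0 to 1 in uHF suprabasal-like cells (Krt78 without 0 h, 0.795%). Outer bulge-like cells had 0 to 5, with all 5 tested without 0 h (5.26%), Krt79 and Krt80 without 4 h (1.46%) and Krt79 without 2 d (0.664%). The difference had 0 to 5, with 5 without 0 h (7.71%), 3 without 4 h (4.07%) and 0 without each of the others. IFE basal-like and spinous-like cells had 0. The fits without a library have 1 residual degree of freedom. The trend of Krt1 in granular-like cells, 0.07, turned to -0.07 with a linear trend, -0.12 at halved resolution, -0.11 with the members in the clustering, -0.50 without 0 h and -0.06 without 4 h, and its range over the left-out libraries was -0.50 to 0.64. At doubled resolution the uHF suprabasal-like name covered fewer cells, and median levels were 71.7 CPM for Krt1 (from 1139), 529 CPM for Krt10 (from 3735) and 8808 CPM for Krt79 (from 5982). Median shares of cells moved with depth. Without thinning they were 98.9% for Krt10, 82.3% for Krt78, 17.1% for Krt2 and 90.6% for Krt80 in granular-like cells, and 44.8% for Krt1, 74.3% for Krt10 and 68.5% for Krt80 in uHF suprabasal-like cells. At 1000 UMIs they were 90.7% for Krt1 in spinous-like cells, 24% for Krt78 and 31.3% for Krt80 in granular-like cells and 18.8% for Krt80 in uHF suprabasal-like cells. The granular-like class was not run at doubled resolution or with doublets removed at 2 times the rate, since fewer than 6 libraries then held 20 cells.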

Other observations

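Krt79 was also present outside the upper follicle and gland. The inner root sheath and matrix-like class, found at 4 d (234 cells) and 6 d (48 cells), held 2387 and 748 CPM of Krt79 at these times, against 81.4 and 69.6 CPM in T cell-like cells. Its Krt10 level was 103 and 228 CPM, with 66.2 and 202 CPM in T cell-like cells. Of its cells, 38.7% would be removed at 2 times the doublet rate, leaving 135 at 4 d and 38 at 6 d, and their part in these levels was not tested. Leading genes of the class were the inner root sheath keratins Krt71, Krt25 and Krt73.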
